A study of Mus musculus with 8 samples.

Results

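Pancreatic islets of NOD/ShiLtJ mice, a strain prone to autoimmune diabetes, were examined for 10 genes that are used as markers of beta cell dedifferentiation or of endocrine progenitors. The genes were chosen by symbol, with earlier results of these data known: Aldh1a3, Slc5a10, Cck, Npy, Fev, Serpina7, Sox4, Sox11, Cd81 and Foxo1. Of these, 9 were among the 14126 genes of the deposited table and all 9 passed the filter on low values. The expression of Sox11 was not analysed here. RNA sequencing covered 2 groups of 4 mice, all 7 weeks old. The WT group had the genotype IRE1α fl/fl, in which the Ern1 gene is floxed, and the KO group had the genotype IRE1αβ-/-, a loss of IRE1α from beta cells. IRE1α is a sensor of protein folding stress in the endoplasmic reticulum. Tamoxifen, which activates inducible forms of the recombinase Cre, is recorded for both groups, as a 10 mg/ml solution injected into the peritoneum on 5 consecutive days. The labels do not name the promoter that drives Cre. Islets are mixtures of beta, alpha, delta and PP cells with some non-endocrine cells, and each library is a whole islet preparation.

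Dedifferentiation is a loss of mature beta cell identity, in which genes for insulin production and glucose sensing decline and genes silent in the mature cell appear. Aldh1a3, an aldehyde dehydrogenase that makes retinoic acid, is a widely used marker of this state in islets. In development, endocrine cells arise from progenitors that pass through a stage marked by Neurog3, then Fev, and Sox4 and Sox11 act in that lineage, while Foxo1 is a transcription factor whose loss from beta cells is known to bring about dedifferentiation under metabolic stress.

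Promoter windows from RefSeq (GRCm38.p6) reached from 250 bases before to 50 bases after an annotated transcription start, and were found for 9 of the 10 genes. These include Sox11 but not Aldh1a3, whose promoter was not searched. The windows of Cck, Slc5a10 and Serpina7 are printed 5′ to 3′ because these genes were low or moderate in WT islets and higher in KO islets, and because each window holds a searched motif. All are on the minus strand, at chr9:121495645-121495944 for Cck, chr11:61720750-61721049 for Slc5a10 and chrX:139085170-139085469 for Serpina7. Capitals mark the motifs: GTAAACA, the core bound by FoxO factors, overlapping the E-box CAGATG in Cck, the same E-box in Slc5a10, and the TATA box TATAAA in Serpina7.
Cck: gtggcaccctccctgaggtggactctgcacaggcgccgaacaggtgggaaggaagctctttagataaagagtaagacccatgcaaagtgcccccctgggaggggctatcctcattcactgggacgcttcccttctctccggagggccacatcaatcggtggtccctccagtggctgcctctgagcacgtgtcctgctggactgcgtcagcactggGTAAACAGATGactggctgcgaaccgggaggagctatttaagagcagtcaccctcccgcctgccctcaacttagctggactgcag
Slc5a10: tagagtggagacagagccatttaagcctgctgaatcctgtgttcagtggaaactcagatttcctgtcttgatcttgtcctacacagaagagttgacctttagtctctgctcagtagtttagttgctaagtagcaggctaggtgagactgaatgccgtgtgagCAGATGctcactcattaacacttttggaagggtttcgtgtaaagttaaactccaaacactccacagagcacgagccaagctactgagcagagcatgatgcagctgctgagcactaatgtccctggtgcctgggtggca
Serpina7: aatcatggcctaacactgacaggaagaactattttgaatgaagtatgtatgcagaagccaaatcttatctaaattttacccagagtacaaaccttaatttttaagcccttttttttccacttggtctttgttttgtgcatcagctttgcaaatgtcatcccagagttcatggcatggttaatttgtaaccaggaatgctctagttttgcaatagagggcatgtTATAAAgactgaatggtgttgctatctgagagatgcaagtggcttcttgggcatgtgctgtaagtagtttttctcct
GTAAACA began 35 bases before the Cck start and CAGATG began 30 bases before it. In the printed windows, the Slc5a10 E-box lay 88 bases before the start, and the Serpina7 TATA box 27 bases before. Both genes also had a window from another annotated start. In these, a CAGATG lay 75 bases before the Slc5a10 start, and the same TATAAA 10 bases before the Serpina7 start. On both strands, GTAAACA occurred in 3.65% of all 32851 promoter windows, CAGATG in 17.2% and TATAAA in 13.6%. A match describes the letters of the window and is not a measured binding site. CCACG, a part of the ER stress response element, occurred in 32.8% of windows and among the 9 genes in those of Sox11 and Foxo1. TGATGNAAN, the amino acid response element, and TGACGTCA, the cAMP response element, were in 3.95% and 1.79% of windows and in none of the windows of these 9 genes. The windows also differed in base composition. Serpina7 had a GC content of 38.0% with 0 CpG, against medians of 52.7% and 7 CpG over all windows, while Npy (68.0%, 24 CpG), Fev (69.0%, 25 CpG) and Foxo1 (61.3%, 31 CpG) were richer in both.

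The measured values, taken as counts that the authors had normalized between libraries and rounded, summed to 32024139 to 34858983 per library. These sums are not sequencing depths, which are unknown. Libraries 1 and 2 of each group separated from libraries 3 and 4 across genes, and with genotype in the model 15.4% of the 14121 genes tested differed between these sets of libraries (limma-trend, adjusted p under 0.05). No batch is recorded in the labels. Of the 9 members, 0 passed that test, and 2 (Sox4 and Foxo1, both higher in libraries 3 and 4) had an unadjusted p under 0.05. Ern1, the targeted gene, had values of 5549, 5164, 4622 and 4500 in WT and 7223, 7390, 6922 and 7216 in KO libraries (log2 fold change 0.54 ± 0.08 SE, limma adjusted p = 0.00234). Reads from anywhere in the gene enter this value, which therefore cannot check the labels. The islet hormones insulin (Ins1, 672336 to 1985505) and glucagon (Gcg, 374922 to 2535429) were abundant in all 8 libraries.

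Of the 9 members, 6 were higher in KO islets (Aldh1a3, Slc5a10, Cck, Fev, Serpina7 and Cd81), 1 was lower (Npy) and 2 did not pass the test (Sox4 and Foxo1), in limma-trend on log2(value + 1) with adjustment over all genes tested. Across those genes, 11.1% were higher and 9.81% lower in KO. For 6 members every KO library lay above every WT library, and for 1 member every KO library lay below, where 13.6% and 12.3% of all genes separated in these directions. Because the members were chosen with earlier results of these data known, their counts beside these shares are given as a description. In bulk islets, fewer cells of a type and less RNA per cell cannot be told apart, and the same holds for a rise. The authors' deposited table, by its own adjusted p, called the same 7 members in the same directions.

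**Figure D1:**
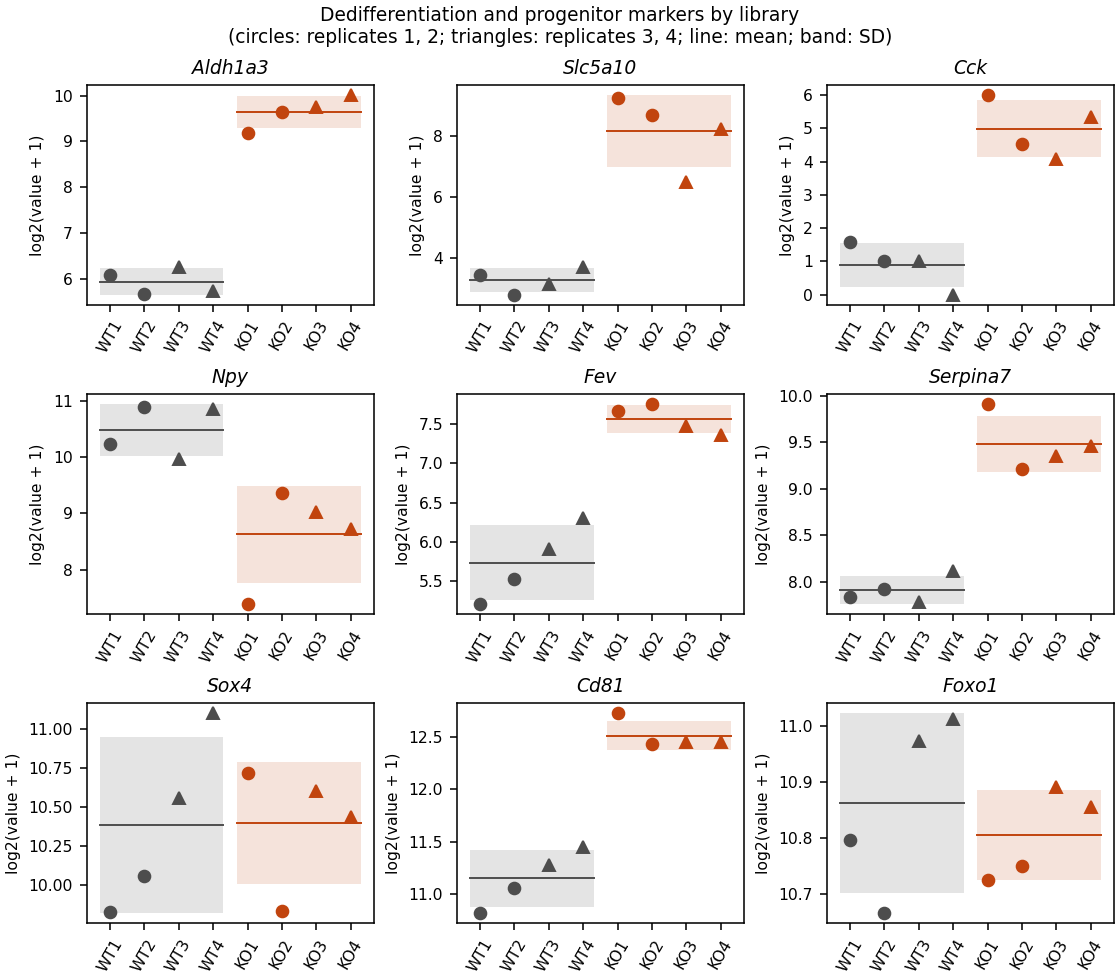
Normalized value of each of the 9 measured members in each library, as log2(value + 1) on the vertical axis with a separate range per panel. Grey marks WT and orange KO, circles replicates 1 and 2, triangles replicates 3 and 4, lines group means and bands 1 SD (n = 4). The groups separate in 7 panels and overlap for Sox4 and Foxo1.

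Aldh1a3 (GRCm38 chromosome 7, 66390890 to 66427517, minus strand) had values of 67, 50, 76 and 52 in WT libraries 1 to 4 and 581, 794, 854 and 1029 in KO libraries 1 to 4. Every KO library was high and the lowest was 7.64 times the highest WT library. The means were 61.2 ± 12.4 in WT and 814.5 ± 184.9 in KO (SD, n = 4 each), 13.3-fold apart. The log2 fold change was 3.70 ± 0.20 (SE, 95% interval 3.24 to 4.16, limma adjusted p = 3.38e-05), the 18th largest rise of the genes tested. Libraries 1 and 2 alone gave 3.53, libraries 3 and 4 alone 3.88, and the value stayed between 3.58 and 3.86 when any 1 library was left out.

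Aldh1a3 belongs to the retinoid pathway, in which retinol is carried, oxidised to retinal by dehydrogenases and oxidised again to retinoic acid by the Aldh1a enzymes. Of 22 other genes of this pathway, 11 were in the table, of which 4 were higher in KO and 0 lower, with a median log2 fold change of 0.35 against -0.0008 over all genes. Aldh1a1, a sister enzyme, had values of 49, 47, 45 and 29 in WT and 272, 104, 141 and 166 in KO (log2 fold change 1.92 ± 0.31, adjusted p = 0.003). Rbp4, the secreted retinol carrier and also a delta cell marker, rose by 1.08 ± 0.13 (adjusted p = 0.000878), and Dhrs3, a retinal reductase, was also called higher.

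The genes whose variation within the groups was most like that of Aldh1a3 were sought among 13084 genes with a mean value of at least 50, after the mean of each group was subtracted. Pearson's r over the 8 libraries was 0.989 for Ppp1r16b, 0.983 for Senp2, 0.972 for Camk2n1 and 0.958 for Arf1, the highest of the genes searched. Of these, Camk2n1, an inhibitor of CaM kinase II, fell in KO islets by 0.89 on the log2 scale (adjusted p = 0.00123) and Arf1, a small GTPase of vesicle traffic, fell by 0.27 (adjusted p = 0.0332). Ppp1r16b and Senp2 had log2 fold changes of -0.20 and -0.28 that did not pass (adjusted p = 0.487 and 0.0766). None of the 4 was called higher. These correlations describe 8 libraries that share their normalization and their division into sets. They are the highest of 13084 genes searched over few libraries, and whether they exceed chance was not tested.

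Slc5a10 (chromosome 11, 61672781 to 61720826, minus strand), a sodium-coupled sugar transporter best known from the kidney, was nearly silent in WT islets, with values of 10, 6, 8 and 12. In KO libraries it had 592, 404, 89 and 294. All KO libraries were above all WT libraries, by at least 7.42 times, but they differed widely among themselves and KO3 was the lowest. The means were 9.0 ± 2.6 and 344.8 ± 210.3 (SD, n = 4 each). The log2 fold change of 4.86 ± 0.53 (95% interval 3.65 to 6.07, limma adjusted p = 0.000539) was the largest of the 9 members and the 6th largest rise of all genes when 1 was added before the log. With 0.1 added, Cck had the larger value. The gene overlaps exons of Fam83g and Grap on the opposite strand, and whether the counting used strand is not given in the sources used here. Per kilobase of exon, Fam83g was at 410 in WT and 200 in KO on average, against 3.81 and 146 for Slc5a10. Fam83g had values of 2279, 2417, 3348 and 2868 in WT and 1123, 1248, 1702 and 1250 in KO, and so fell by 1.04 on the log2 scale (adjusted p = 0.00239). Grap, an adaptor of receptor tyrosine kinase signalling, had a log2 fold change of -0.27 that did not pass (adjusted p = 0.534). Neither neighbour was called higher.

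Other SLC5 transporters were then counted. Of 12 listed, 5 were in the table and 0 were higher, while 1 was lower, with a median of 0.39. At an unadjusted p under 0.05, 2 were higher, and the authors' deposited table also called 2 higher. Slc5a6, the vitamin transporter for biotin and pantothenate, fell by 0.56 ± 0.13 (adjusted p = 0.0183), a call that ended without KO3 (adjusted p = 0.051). With the replicate block, the number called higher was 2 of the 5. Slc5a1, the intestinal glucose transporter, had values of 65, 56, 42 and 43 in WT and 372, 111, 83 and 83 in KO, without passing (log2 fold change 1.34, adjusted p = 0.0679), and passed with the replicate block (0.0211).

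Cck (chromosome 9, 121489824 to 121495694, minus strand) encodes cholecystokinin, a gut and brain peptide that islet cells can also make, and which is known to promote beta cell survival. Its values were 2, 1, 1 and 0 in WT and 63, 22, 16 and 40 in KO libraries. The gene was thus at or near 0 in each WT library and present in each KO library, with means of 1.0 ± 0.8 and 35.2 ± 21.1 (SD, n = 4 each). The log2 fold change was 4.10 ± 0.72 (95% interval 2.46 to 5.73, limma adjusted p = 0.00489), the 14th largest rise. Its size depends on the constant added before the log, because the WT values are so low. It was 5.44 with 0.1 added, 2.14 with 8 added and 3.08 after quantile normalization, and it passed the test in each case.

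Gast, the related hormone gastrin, which adult islets normally lack and which is known to appear in dedifferentiating beta cells, had values of 7, 10, 5 and 15 in WT and 47, 39, 25 and 21 in KO. It rose by 1.76 ± 0.47 (adjusted p = 0.0294), but the call ended when any of 6 libraries (WT1, WT2, WT3, KO1, KO2 or KO3) was left out, with a highest adjusted p of 0.0817. Of 9 genes for cholecystokinin and gastrin, their receptors and their processing enzymes, 8 were in the table, 4 were higher and 0 lower (median 0.25). Without WT3, KO1 or KO2 the number higher was 2. Cckar, the receptor that prefers cholecystokinin, rose from values of 59, 137, 174 and 100 to 353, 393, 397 and 266 (log2 fold change 1.67 ± 0.31, adjusted p = 0.00604). Pam, the enzyme that amidates peptide hormones, rose by 0.73 ± 0.11 (adjusted p = 0.00241), and Tpst1, which sulfates tyrosines, was the other called gene.

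Npy (chromosome 6, 49822710 to 49829507, plus strand) encodes neuropeptide Y, which is made by beta cells in the fetal and newborn period and declines with maturity. It was the member that fell. Its values were 1202, 1890, 1000 and 1847 in WT and 167, 659, 521 and 420 in KO. KO1 was lowest, and the lowest WT library was 1.52 times the highest KO library. The means of 1484.8 ± 451.1 and 441.8 ± 207.7 (SD, n = 4 each) were 3.36-fold apart. KO against WT gave a log2 fold change of -1.86 ± 0.40 (95% interval -2.77 to -0.95, limma adjusted p = 0.0124) and -1.45 without KO1 (adjusted p = 0.00974). Per kilobase of exon, Npy was the most abundant member in WT islets.

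Its relatives went the other way. Pyy, peptide YY, had 10307, 15661, 15488 and 14659 in WT and 43842, 43333, 33391 and 36097 in KO, and rose by 1.49 ± 0.16 (adjusted p = 0.000424). Ppy, pancreatic polypeptide, rose by 1.47 ± 0.23 (adjusted p = 0.0026). Both peptides are products of islet PP and other non-beta cells. Of 8 genes of the family, its receptors and its peptidase, 4 were in the table, with 2 higher, 1 lower and a median of 1.31. Dpp4, the peptidase that trims these peptides, fell by 0.44 ± 0.10 (adjusted p = 0.0182), and its call ended without WT2, KO3 or KO4 (highest adjusted p 0.054).

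Serpina7 (chromosome X, 139079257 to 139085236, minus strand) encodes thyroxine-binding globulin, a carrier of thyroid hormone in blood that is made chiefly by the liver. Its values were 227, 241, 218 and 277 in WT and 962, 591, 655 and 702 in KO. WT libraries were close together and KO1 was the highest of the KO libraries. The means were 240.8 ± 26.0 and 727.5 ± 162.8 (SD, n = 4 each), and the log2 fold change was 1.57 ± 0.16 (95% interval 1.22 to 1.93, limma adjusted p = 0.000355). Left-out libraries moved it between 1.43 and 1.66.

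Among 13 other genes of thyroid hormone transport, conversion and response, 10 were in the table, with 4 higher, 1 lower and a median of 0.24. Ttr, the other thyroxine carrier and an alpha cell marker, rose by 0.97 ± 0.15 (adjusted p = 0.00241). Hr, a corepressor that thyroid hormone induces, was called higher at 1.29 ± 0.38 (adjusted p = 0.0425), a call that ended without any single library but WT4 and with the replicate block (adjusted p = 0.0705). The list's count of genes lower was 0 without KO1 or KO4.

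Cd81 (chromosome 7, 143052739 to 143067934, plus strand) encodes a tetraspanin of the cell surface that is used as a marker of immature and stressed beta cells. Its values were 1807, 2132, 2479 and 2796 in WT and 6776, 5530, 5593 and 5591 in KO. KO1 stood above the other KO libraries, which were nearly equal. The means were 2303.5 ± 427.9 and 5872.5 ± 603.0 (SD, n = 4 each), with a log2 fold change of 1.36 ± 0.14 (95% interval 1.05 to 1.67, limma adjusted p = 0.000358) and 1.29 without KO1. R74862, a noncoding transcript that overlaps Cd81 on the opposite strand, had a log2 fold change of -0.13 that did not pass (adjusted p = 0.635).

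Of 29 other tetraspanins and partners, 26 were in the table, of which 7 were higher, 3 lower and 16 not called, with a median of 0.10. Cd9, a tetraspanin that pairs with Cd81, rose by 1.23 ± 0.25 (adjusted p = 0.00886). Tspan8 rose by 1.18 ± 0.14 (adjusted p = 0.000762). Tspan12, a coreceptor of Norrin signalling, rose by 1.03 ± 0.09 (adjusted p = 0.000151), with 504, 479, 568 and 553 in WT and 1079, 990, 1111 and 1102 in KO. Ptgfrn, a direct partner of Cd81, was among the others called higher, and Tspan5, Cd63 and Tspan13 were the 3 called lower, the last not with the replicate block (adjusted p = 0.0715).

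Fev (chromosome 1, 74881509 to 74885419, minus strand) encodes an ETS family transcription factor of endocrine progenitors and serotonergic neurons that also acts in adult beta cells. Its values were 36, 45, 59 and 78 in WT and 202, 215, 178 and 164 in KO. The groups did not overlap, and the means were 54.5 ± 18.3 and 189.8 ± 23.0 (SD, n = 4 each). This was a rise of 1.83 ± 0.24 (95% interval 1.28 to 2.38, limma adjusted p = 0.00127). Libraries 1 and 2 alone gave 2.34 and libraries 3 and 4 alone 1.32 (interaction, limma adjusted p = 0.161).

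Fev drives serotonin genes in neurons, and beta cells share part of that program. Of 17 serotonergic genes, 11 were in the table, with 3 higher, 3 lower and a median of -0.03. Slc18a2, the vesicular monoamine transporter, rose by 0.85 ± 0.17 (adjusted p = 0.0082). Maob, which degrades monoamines, fell by 0.93 ± 0.10 (adjusted p = 0.000519). Its relative Maoa was called higher (0.39, adjusted p = 0.0217). Ddc (-0.79, adjusted p = 0.00058) and Gch1 (-0.62, adjusted p = 0.0029) were also called lower, so the list did not move in 1 direction.

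Sox4 (chromosome 13, 28948919 to 28953713, minus strand), an SRY-box transcription factor of endocrine differentiation, did not separate the groups. Its values were 907, 1063, 1505 and 2191 in WT and 1683, 911, 1550 and 1379 in KO, with means of 1416.5 ± 575.1 and 1380.8 ± 337.0 (SD, n = 4 each). The log2 fold change was 0.01 ± 0.29 (95% interval -0.64 to 0.66, limma adjusted p = 0.983), an interval that leaves room for a moderate change either way. Libraries 1 and 2 alone gave 0.33 and libraries 3 and 4 alone -0.31. Among other Sox genes, 9 of 17 were in the table and 2 were higher, 0 lower, with a median of 0.67. Sox6 and Sox5, a closely related pair, rose by 1.11 ± 0.20 (adjusted p = 0.00562) and 1.09 ± 0.21 (adjusted p = 0.00779). Sox9, the progenitor and duct factor, had 41, 35, 27 and 57 in WT and 293, 86, 71 and 75 in KO. It missed the threshold at a log2 fold change of 1.46 (adjusted p = 0.0524) and passed with the replicate block (0.0325).

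Foxo1 (chromosome 3, 52268336 to 52353221, plus strand) had the narrowest interval of the 9 members. Its values were 1777, 1624, 2009 and 2066 in WT and 1692, 1721, 1898 and 1851 in KO. The means were 1869.0 ± 205.7 and 1790.5 ± 99.6 (SD, n = 4 each). The log2 fold change was -0.06 ± 0.09 (95% interval -0.27 to 0.15, limma adjusted p = 0.714). The regulation of Foxo1 by phosphorylation and nuclear export is not seen in RNA. Of 20 other FoxO genes and FoxO targets, 18 were in the table, with 2 higher, 2 lower, 14 not called and a median of -0.01. Pdk4, a kinase that restrains glucose oxidation, had 510, 848, 1094 and 1044 in WT and 3030, 1843, 2472 and 1988 in KO (log2 fold change 1.45 ± 0.25, adjusted p = 0.00442). Klf15 (-0.75, adjusted p = 0.0481) and Cat (0.66, adjusted p = 0.0347), a metabolic transcription factor and the enzyme catalase, were called, but leaving out single libraries ended the call of Klf15 in 7 of 8 cases and of Cat in 5 of 8.

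**Figure D2:**
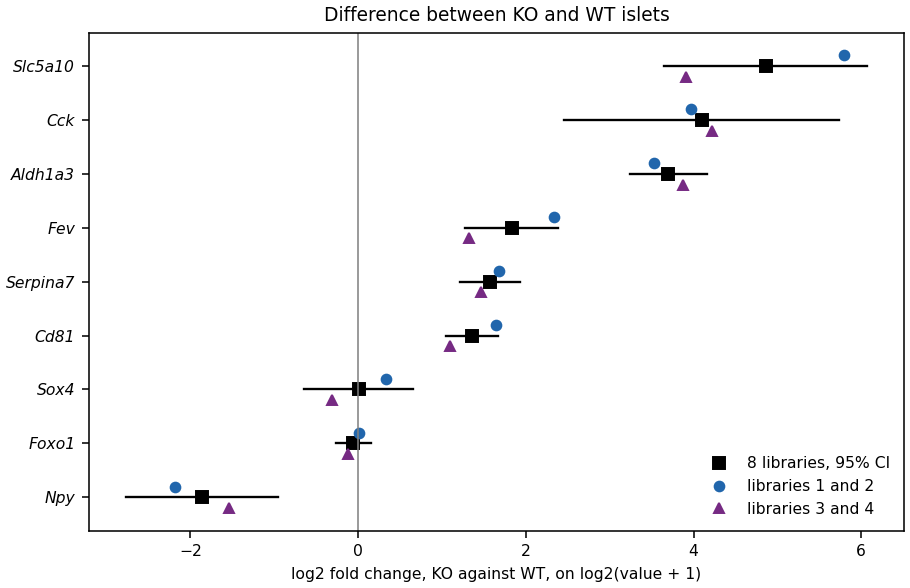
Log2 fold change of KO against WT for the 9 members on the horizontal axis, on the log2(value + 1) scale. Squares with bars are the fit to all 8 libraries with its 95% interval, circles libraries 1 and 2 alone and triangles libraries 3 and 4 alone. The intervals of Sox4 and Foxo1 include 0, and the 7 others lie to 1 side of it.

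The plot of fold changes by set of libraries shows how far the members held across the division of the data. Each of the 7 changed members passed limma's test in libraries 1 and 2 alone and in libraries 3 and 4 alone. The change was smaller in libraries 3 and 4 for 5 of the 7, and larger for Aldh1a3 and Cck. The difference between the sets was tested as an interaction in limma, and 0 of the members passed. Slc5a10 (limma adjusted p = 0.229), Fev (0.161) and Cd81 (0.16) were the 3 members with an unadjusted p under 0.05. Across all genes, 18.8% had an unadjusted p under 0.05 and 0.0991% passed.

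Within the groups the members did not vary as 1 unit. After subtraction of group means, Pearson's r over 8 libraries ranged from -0.77 for Npy with Cck to 0.878 for Cd81 with Fev, and Cd81 with Sox4 had 0.864. Aldh1a3 and Serpina7, which both rose, had -0.702. These values rest on few libraries that also divide into sets, and are given as a description.

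Per kilobase of exon, a scale on which genes can be compared, the WT means ran from 2620 for Npy and 800 for Cd81 through Sox4 (295), Foxo1 (216), Serpina7 (98.3), Fev (33.7), Aldh1a3 (13.3) and Slc5a10 (3.81) to Cck (0.766). Only Sox4 and Foxo1 overlapped as neighbours in that order. In KO islets Cd81 came first at 2040, above Npy at 780, and Aldh1a3 at 176 and Slc5a10 at 146 had come close to Foxo1 at 207. The ranges of Aldh1a3 (126 to 223) and Slc5a10 (37.6 to 250) overlapped that of Foxo1 (195 to 219), while Cck remained the lowest on average at 27.0.

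Other genes of the same biology were counted beside the members. These lists were chosen with earlier results of these data known, so their counts are given as a description. Over all genes tested, 11.1% were higher and 9.81% lower in KO. Of 11 further markers of dedifferentiation or immaturity, all in the table, 7 were higher and 0 lower in KO, with a median log2 fold change of 1.11. Without WT1, WT2 or KO3 the number higher was 4. Aass, an enzyme of lysine breakdown, had 69, 58, 59 and 62 in WT and 1397, 1156, 1142 and 1481 in KO, a rise of 4.36 ± 0.12 (adjusted p = 7.35e-07). Bche, butyrylcholinesterase, had 52, 69, 46 and 65 in WT and 499, 211, 120 and 132 in KO (1.80 ± 0.42, adjusted p = 0.0159).

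Of 20 progenitor transcription factors and markers, 18 were in the table, with 2 higher, 2 lower and 14 not called, and a median of 0.09. Neurog3, which commits progenitors to the endocrine lineage, had values of 98, 89, 70 and 65 in WT and 191, 239, 110 and 111 in KO. It was called higher at 0.94 ± 0.28 (adjusted p = 0.0438), and the call ended without any of 6 libraries (all but KO3 and KO4, highest adjusted p 0.11). Prox1, a homeobox factor of early pancreas, rose by 0.63 ± 0.13 (adjusted p = 0.00829), and Btbd17, a gene used to mark Neurog3-stage cells, fell by 0.51 ± 0.10 (adjusted p = 0.00688). Without WT1, WT2, WT3, KO1 or KO2 the list had 1 gene higher, and leaving out any library but WT4 left 1 lower.

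Of 10 pluripotency factors 5 were in the table, and 0 passed limma's test in either direction (median 0.34). At an unadjusted p under 0.05, 1 was higher and 1 lower, and the authors' deposited table called 2 higher. Klf4, the most abundant of the list, had 100, 117, 1399 and 1675 in WT and 326, 191, 1613 and 1844 in KO, and so differed mainly between libraries 1 and 2 and libraries 3 and 4 (log2 fold change 0.69, adjusted p = 0.714). With the sets of libraries as a term, 2 of the 5 were higher. Of 14 genes of beta cell maturity, all in the table, 10 were lower and 0 higher (median -0.95). Trpm5, a cation channel of stimulated secretion, fell by 2.76 ± 0.19 (adjusted p = 7.77e-05), Ucn3, the maturity hormone urocortin 3, by 2.10 ± 0.18 (adjusted p = 0.000151), and Glp1r, the incretin receptor, by 1.66 ± 0.14 (adjusted p = 0.000134). Pdx1, a core beta cell transcription factor, had a log2 fold change of -0.09 that did not pass (adjusted p = 0.733).

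**Figure D3:**
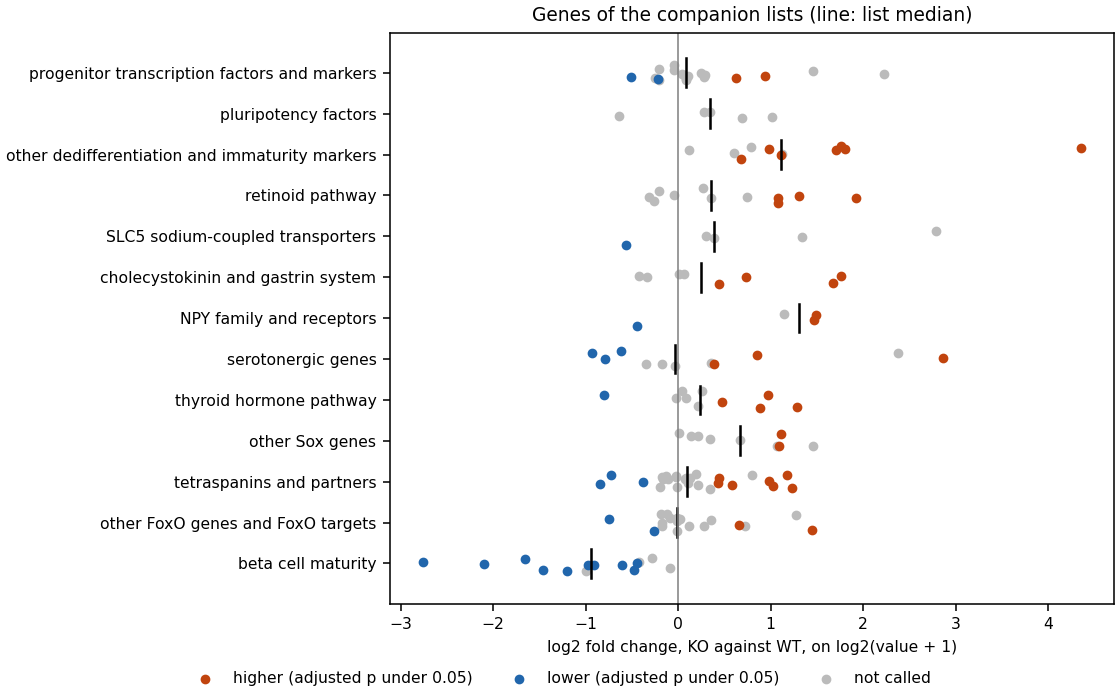
Log2 fold change of KO against WT (horizontal axis, log2(value + 1) scale) of each measured gene in 13 lists related to the members, with the members left out. Orange marks genes called higher, blue genes called lower, grey genes not called, and black lines list medians. The medians run from -0.95 for beta cell maturity to 1.31 for the NPY family.

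Markers of other islet cells moved with the same comparison. Summed values of 9 alpha cell genes lay between 433836 and 1071760 in WT and between 1950250 and 2655635 in KO, 3.01-fold apart in the means, and 7 of the 9 were called higher. Summed values of 7 delta, PP and epsilon cell genes lay between 104013 and 170705 in WT and between 277570 and 391767 in KO, 2.4-fold apart, with 6 of the 7 higher. Beta cell genes had 5 of 7 lower, and their sums lay between 5259938 and 5896833 in WT and between 2480277 and 3412261 in KO. The call of Ins2 (-0.98, adjusted p = 0.0309) ended in 5 of the 8 fits that left out 1 library. It also ended with the replicate block (limma adjusted p = 0.104), with which 4 of the 7 were lower. Each sum is mostly made of hormone values: Gcg for alpha, Sst, Ppy and Pyy for delta, PP and epsilon, and Ins1, Ins2 and Iapp for beta. Gcg had a log2 fold change of 1.74, and the other alpha genes ran from -0.23 for Slc7a2 (not called) to 1.62 for Irx2. A ratio of sums is therefore not a measure of cell number. Among the members, the ratio of means was 3.48 for Fev, 3.02 for Serpina7, 2.55 for Cd81, 13.3 for Aldh1a3, 38.3 for Slc5a10 and 35.2 for Cck. The part of these cell markers in the members' changes was not tested.

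Markers outside the endocrine cells were higher in some libraries. Ductal genes summed to 6370 to 7617 in WT and 12961 to 30509 in KO, and 2 of 9 passed, Spp1 (3.12, adjusted p = 0.000337) and Muc1 (1.91, adjusted p = 0.0369). KO1 stood apart there, with Krt19, a duct keratin, at 1673 against 54 to 216 in the other KO libraries and 46 to 80 in WT. KO1 was also the highest KO library for Slc5a10, Cck, Serpina7, Cd81 and Sox4, and the lowest for Aldh1a3, Npy and Foxo1. Without KO1 the log2 fold changes were 3.86 for Aldh1a3, 4.50 for Slc5a10, 3.76 for Cck, 1.80 for Fev, 1.43 for Serpina7 and 1.29 for Cd81, and each passed limma's test. Acinar genes (26595 to 329045 in WT, 169227 to 491714 in KO, 1 of 13 called higher) and stellate and fibroblast genes (9042 to 14636 and 15880 to 27054, 1 of 9 higher) had few calls without the replicate block. With it, 7 of 9 stellate, 3 of 13 acinar and 4 of 9 ductal genes were called higher, among them Col1a1 (adjusted p = 0.0297), Col3a1 (0.00621), Dcn (0.00574) and Onecut2 (0.0325), while Muc1 was lost (0.0522). The authors' deposited table called 12 of 13 acinar, 7 of 9 stellate and 7 of 9 ductal genes higher. The acinar sums of the groups overlapped. Endothelial, Schwann and macrophage lists had 0 of 8 genes called each by limma (1, 0 and 1 at an unadjusted p under 0.05, and 1, 4 and 1 higher in the authors' deposited table), and 1, 2 and 0 were called higher with the replicate block. Of 5 measured T and B cell genes 1 was lower. Vip, a peptide of neurons, had values of 0, 1, 471 and 324 in WT and 73, 77, 1130 and 1122 in KO, and was higher in KO in each pair of same-numbered libraries. Its log2 fold change of 3.64 ± 2.13 did not pass (adjusted p = 0.263) but did with the replicate block (0.0228). Tac1, another such peptide, had 0, 0, 141 and 62 in WT and 19, 7, 144 and 67 in KO (log2 fold change 1.87, adjusted p = 0.498). Of the other genes of that list only Chga was analysed here. It went the other way without passing (log2 fold change -0.42, limma adjusted p = 0.0655). Immediate early genes, which respond to handling, had 0 of 16 called for genotype by limma, 0 at an unadjusted p under 0.05 and 2 in the authors' deposited table, and 14 of 16 between the sets of libraries. The part of these in the members' changes was not tested.

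**Figure D4:**
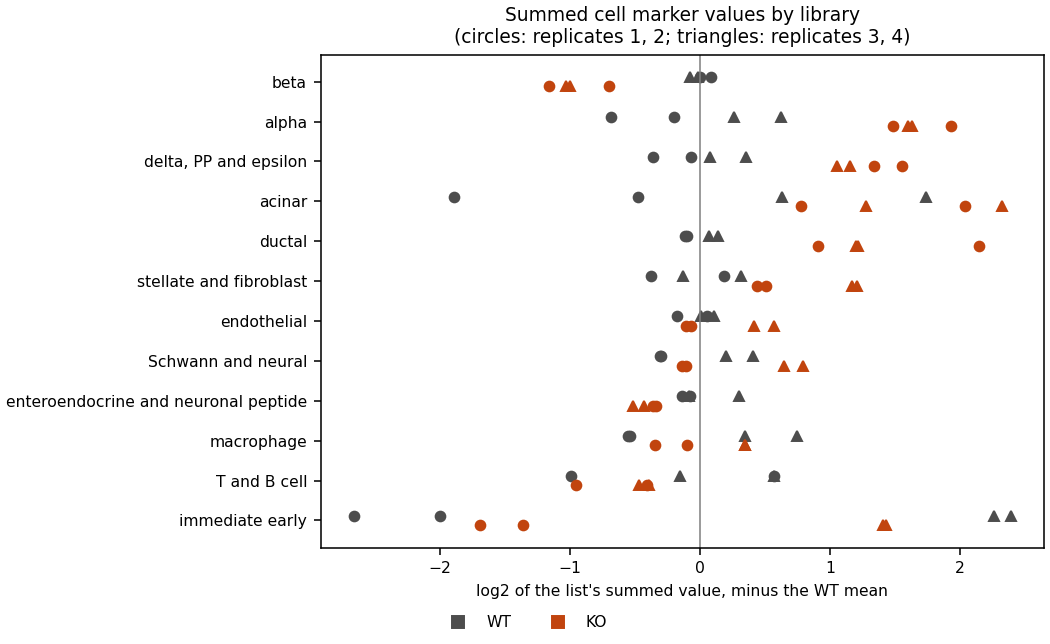
Summed value of each cell marker list in each library, on a log2 scale relative to the mean log2 sum of the WT libraries (horizontal axis). Grey marks WT, orange KO, circles replicates 1 and 2, triangles replicates 3 and 4. Alpha and delta, PP and epsilon sums lie to the right in all KO libraries, beta sums to the left, and the ductal sum is highest in KO1.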

How the data were processed

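RNA of hand-picked islets was sequenced as 8 libraries, 4 per genotype. The series' design text gives mice as the replicates. Per the submitters' processing notes, the tools included STAR 2.5.3a, RSEM 1.2.31, bcl2fastq 2.20 and edgeR 3.16.15, and the build was GRCm38.p5. Strandedness was not given in the sources used here. Library columns deposited by the authors were taken as normalized counts rounded to whole numbers, a score, from their names and near-equal totals; how they were normalized is not stated. The authors' deposited table also gave a log2 fold change, log2 CPM, likelihood ratio score, p-value and adjusted p-value per gene. Depth is unknown. Low values were compared with the spacing that rescaled whole reads would leave. The correlation of the best fit ran from 0.397 in KO3 to 0.88 in WT4, and whether it exceeds chance was not tested.

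Tests used limma-trend (limma 3.58.1, R 4.3.3) on log2(value + 1), keeping genes that reached a value of 1 in 4 or more libraries. The p-values of these 14121 genes were adjusted together by the Benjamini-Hochberg method, with a threshold of 0.05. The pseudocount of 1 understates the changes of low genes. The script was tested on simulated data. Members and gene lists were chosen with earlier results of these data known; some lists share genes (Gast, Sox9, Gadd45a and Pcsk1 stand in more than 1). Named genes were Ern1, the members, the called genes that changed most in each list, up to 3 (the most abundant gene if none was called), the 4 genes most alike Aldh1a3 and cell markers. Fam83g, Grap, R74862, Slc5a1, Sox9, Pdx1, Dhrs3, Tpst1, Ptgfrn, Tspan5, Cd63, Tspan13, Ddc, Gch1 and Maoa were added after their values were seen. Some genes that this rule names are not reported here. Coordinates are from GENCODE M21 and promoters from RefSeq GRCm38.p6. Same-numbered libraries of the groups deviated together (r of 0.327, 0.583, 0.664 and 0.381 across genes). The main test used no pairing, and a replicate block by number was fitted as an alternative. Libraries 1 with 2 and 3 with 4 also correlated across groups (0.433 to 0.516), more than same-numbered libraries 1 or 4 did. These values therefore do not show a pairing by number apart from the sets of libraries.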

Additional observations from a re-analysis of the deposited data

Results flagged for a closer look

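Cd81 in KO1 had a value of 6776, against 5530 to 5593 in the other 3 KO libraries, a gap of 0.949 of the group's range, above Dixon's 95% critical value for 4 samples. It was the 1 such value among 18 groups of members tested, and chance alone marks about 1 in 20 groups. KO1 also had the highest summed ductal markers of the 8 libraries (30509).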

How the results depend on the processing

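Over 20 alternatives (8 that left out 1 library and 12 others), all 140 values of the 7 changed members kept their direction and their side of the threshold. With the replicate block, 1999 genes were higher and 1649 lower in KO, and no member's call changed; its effect on the related and cell marker lists is given in the report where it moved a count by over 1.5 times. With the sets of libraries as a term, 2400 genes were higher and 2102 lower. Leaving out 1 library gave 1121 to 1684 genes higher and 863 to 1599 lower, the lowest without WT2; without KO4 909 were lower. Sox4 changed sign, to -0.31 in libraries 3 and 4 alone and with a range of -0.17 to 0.25 when 1 library was left out, and Foxo1 was 0.01 in libraries 1 and 2 alone; neither was called. The causes were not tested. Scaling to a total without hormone and mitochondrial genes made 63.2% of calls higher (1746 higher, 1017 lower), scaling to the total 61.5%, against 53.0% with the values as deposited, without changing a member's call. Lists with few calls moved most: progenitor factors had 1 to 6 genes higher and FoxO genes 1 to 5 over these settings. Unknown depth leaves counting error at low genes such as Cck unmeasured.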
